A study of Mus musculus with 36 samples.

Results

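Olfactory receptor genes on mouse chromosome 2 were followed across 3 maps of replication timing (RT), the order in which the genome is copied during S phase. Members were all protein-coding genes on this chromosome whose symbol starts with Olfr in the GENCODE M1 annotation of the mm9 genome, each placed by its annotated start. The rule used no measured value and gave 286 genes of 22350 protein-coding genes, and of 1113 protein-coding olfactory receptor genes in all.

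Repli-seq libraries, made from nascent DNA of sorted early and late S phase fractions, numbered 36 in 7 groups, and 2 of the groups are used here. CH12 shLacZ cells are a mouse B cell lymphoma line, cultured with IL4, CD40 and TGF beta stimulation and infected with a lentiviral control shRNA against LacZ. Primary B WT cells are activated splenic B cells of Rif1+/+ mice on a C57BL/6 background, whose age was not given in the sources used here. Each of these groups had 4 libraries, 2 replicates of both fractions, and the authors merged the replicates before calling states. A further deposited map, named for mouse embryonic fibroblasts (MEFs), is tied by the labels to no sample, and its source cells cannot be checked from them. The CH12 map describes a single cell line, and none of the 3 maps is named for olfactory tissue. Every 20 kb bin was early (E), middle (M) or late (L), with 1 map per condition. No replicate error and no test between conditions could therefore be given, and the maps do not hold the read depth. The intervals below are Wilson 95% intervals that cover counting only, and neighbouring genes in the same domain are not independent.

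Olfactory receptors are G protein-coupled receptors that olfactory sensory neurons use to detect odorants, and each neuron transcribes a single allele of a single receptor gene. The genes are small, have their coding sequence in a single exon as a rule, and lie in tandem clusters that grew by local duplication. In cells that do not use them, such clusters are usually silent, compact chromatin, and such chromatin is usually copied late in S phase. RT domains are larger than genes, so a whole run of receptors usually shares a domain.

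The coding sequences show how alike the members are. Each member's closest relative among the others was 87.6% identical in the median, and 57 of 286 members had a relative at 95% identity or more. The closest relative lay in the same cluster for 284 members. The pair Olfr1306 and Olfr1307 is shown because the edge of a late domain fell between them in primary B cells, and the pair Olfr1049 and Olfr1051 because it was the most alike of all pairs. For each gene, 120 bases of the coding strand from mm9 are given 5′ to 3′, chosen where the pair differs most, and capitals mark the bases that differ within the pair.
Olfr1306: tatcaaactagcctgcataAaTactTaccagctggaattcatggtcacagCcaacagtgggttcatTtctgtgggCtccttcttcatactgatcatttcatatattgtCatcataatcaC
Olfr1307: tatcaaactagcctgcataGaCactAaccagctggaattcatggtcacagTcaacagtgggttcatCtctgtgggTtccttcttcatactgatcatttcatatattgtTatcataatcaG
Olfr1049: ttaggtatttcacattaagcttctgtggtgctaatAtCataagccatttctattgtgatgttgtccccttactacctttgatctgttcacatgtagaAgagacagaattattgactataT
Olfr1051: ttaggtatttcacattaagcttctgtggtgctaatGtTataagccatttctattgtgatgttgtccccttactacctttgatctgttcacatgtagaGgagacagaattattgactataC

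The Olfr1306 stretch lies on the minus strand at chr2:111752415-111752534 and the Olfr1307 stretch at chr2:111784941-111785060, bases 552 to 671 of each coding sequence. These genes differed at 29 of 939 coding bases, an identity of 96.9%, and shared a longest identical run of 174 bases. The Olfr1049 stretch lies on the minus strand at chr2:86095248-86095367 and the Olfr1051 stretch at chr2:86116042-86116161, bases 482 to 601. Olfr1049 and Olfr1051 differed at 12 of 927 bases, an identity of 98.7%. A 50-base read that falls in an identical stretch cannot be placed uniquely, and the maps were made from unique alignments.

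The members formed 3 clusters when neighbours up to 1000 kb apart were joined. Cluster 1 held 28 genes from Olfr338 to Olfr368 over 956 kb at chr2:36232298-37188253. Its neighbours were Ptgs1, a cyclooxygenase of prostaglandin synthesis, before it and Pdcl, a phosducin-like protein, after it. Cluster 2 held 221 genes from Olfr987 to Olfr1272 over 4952 kb at chr2:85171054-90122730, between Lrrc55, an auxiliary subunit of potassium channels, and Ptprj, a receptor tyrosine phosphatase. Cluster 3 held 37 genes from Olfr1275 to Olfr1318 over 926 kb at chr2:111070975-111997157, between 4930430A15Rik and Lpcat4, a lysophospholipid acyltransferase. The median distance between neighbouring starts was 31.2 kb in cluster 1, 18.9 kb in cluster 2 and 23.5 kb in cluster 3. Cluster 2 was therefore the most densely packed, with 44.6 members per Mb against 29.3 in cluster 1 and 40.0 in cluster 3. The annotated start was the first base of the coding sequence in 175 of the 286 members, so the true transcription start of these may lie further upstream.

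**Figure D1:**
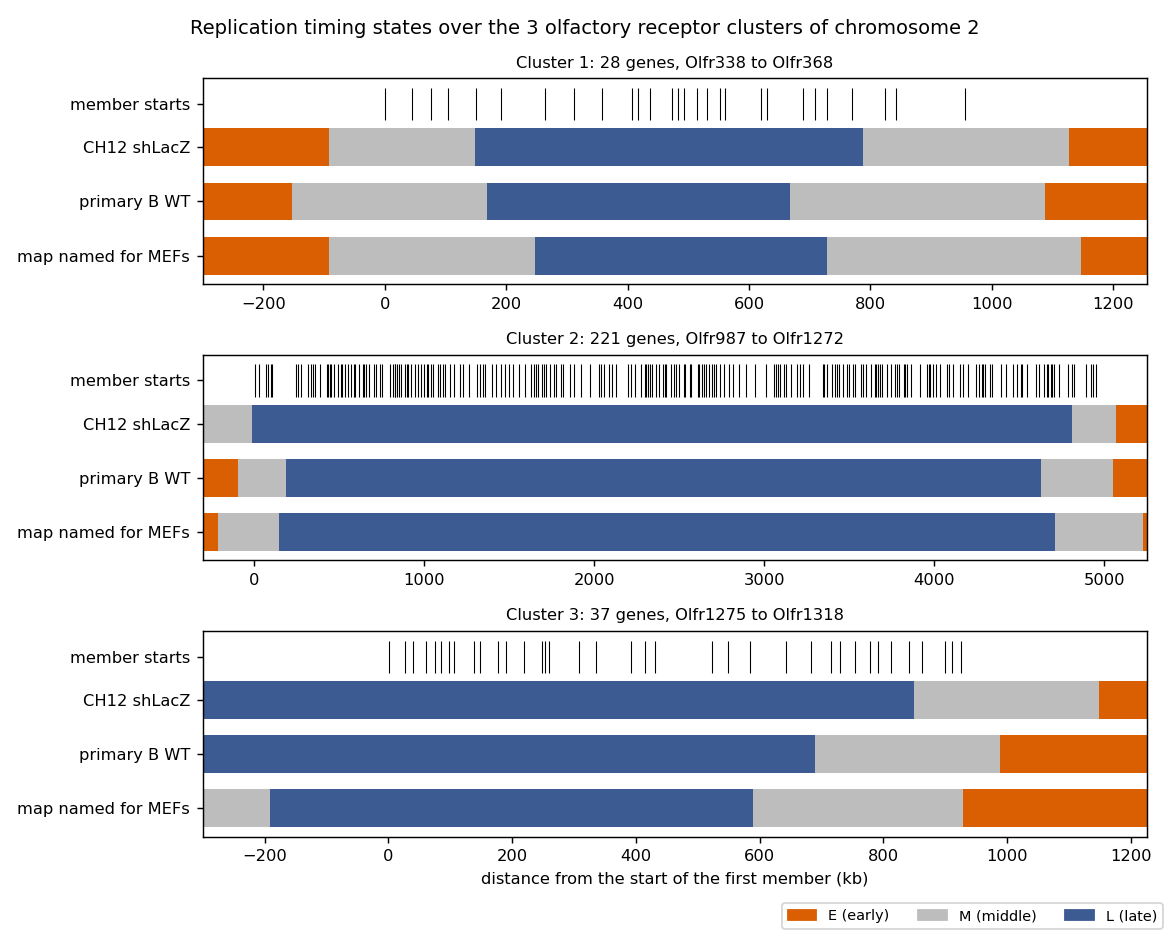
RT states over the 3 clusters in the 3 maps, with the distance from the start of the first member in kb on the x axis, a bar per map coloured by state, and black ticks for member starts. In each cluster the M stretches lie over the outer members and no member start lies in E, and the left end of cluster 3 is continuous with late DNA in both B cell maps.

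Most of the genes lay in late domains in every map. In CH12 cells, 270 of 286 members were L, a share of 94.4% (interval 91.1 to 96.5%), and the other 16 were M. In primary B cells, 243 were L, 85.0% (80.4 to 88.6%), and 43 were M. In the map named for MEFs, 248 were L, 86.7% (82.3 to 90.2%), and 38 were M. Over all protein-coding gene starts the L share was 22.1% in CH12 cells, 12.9% in primary B cells and 11.9% in the map named for MEFs. Members in E numbered 0 of 286 in every map, and a count of 0 of 286 allows a share of up to 1.05%. This limit covers counting only, since the members lay in 7 or 8 domains per map. Protein-coding genes of chromosome 2 that are no olfactory receptors were L in 13.2% of 1559 cases in CH12 cells, 6.54% in primary B cells and 6.61% in the map named for MEFs, all below the members' shares.

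Only 5 combinations of states occurred. Members that were L in all 3 maps numbered 240, or 83.9%, against 8.12% of all protein-coding gene starts and 35.9% of the 827 olfactory receptor genes on other chromosomes. Members that were M in all 3 maps numbered 16. A group of 19 was L in CH12 cells and M in both other maps, a group of 8 was M in primary B cells alone, and a group of 3 was M in the map named for MEFs alone. No member differed by more than 1 step between maps. By cluster, members L in all 3 maps were 15 of 28 in cluster 1, 201 of 221 in cluster 2 and 24 of 37 in cluster 3. Measured over the 345 bins of the clusters in place of gene starts, the L share was 91.6% in CH12 cells and 81.7% in each of the other maps. The background by bins is larger than by gene starts. Of 8575 bins of mostly known bases elsewhere on chromosome 2, 3846 were L in CH12 cells, 2910 in primary B cells and 1955 in the map named for MEFs.

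**Figure D2:**
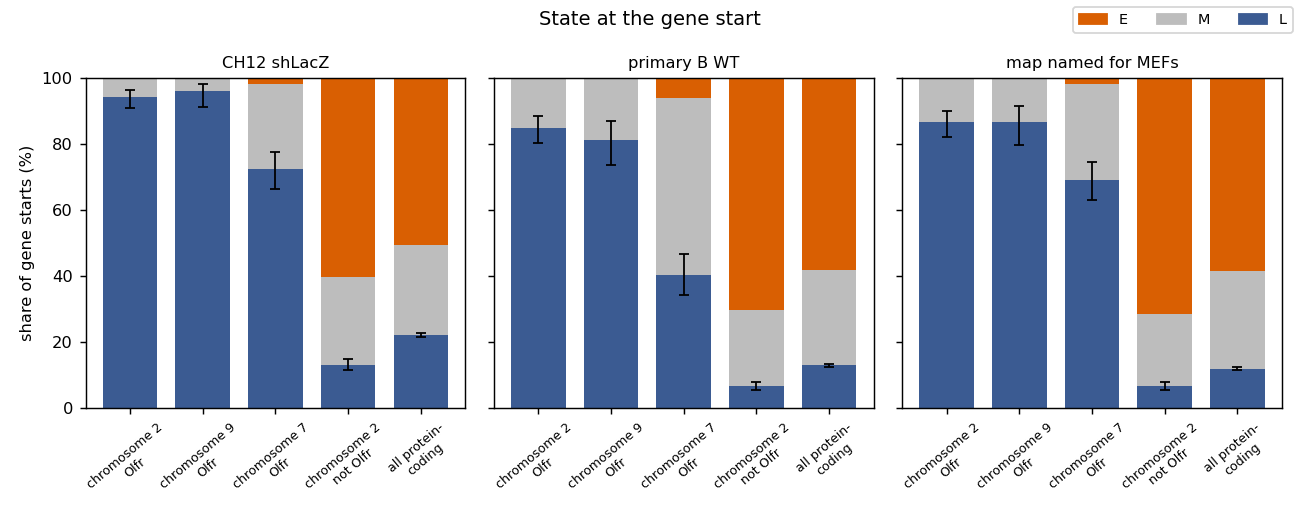
Share of gene starts in each state in percent, per map, for olfactory receptor genes of chromosomes 2, 9 and 7, other protein-coding genes of chromosome 2, and all protein-coding genes, with Wilson 95% intervals on the L share. The members were L in 85.0 to 94.4% of cases, near the chromosome 9 genes and above the chromosome 7 genes in each map.

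Members that were M in some map lay in unbroken runs at cluster ends, at both ends of clusters 1 and 2 and at the far end of cluster 3. In cluster 1, Olfr338 to Olfr341 were M in all 3 maps, Olfr342 was L in CH12 cells and M in the others, and Olfr344 was M in the map named for MEFs alone. The 15 genes from Olfr345 to Olfr358 were L throughout. Beyond them, Olfr360 and Olfr361 were M in primary B cells alone, Olfr362 and Olfr364-ps1 were M in primary B cells and in the map named for MEFs, and the 3 genes from Olfr365 to Olfr368 were M in every map. Cluster 1 thus had M genes at both ends in every map.

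In cluster 2, the 6 genes from Olfr987 to Olfr995 were L in CH12 cells and M in both other maps. The next 201 genes, from Olfr996 to Olfr1259, were L in all 3 maps without interruption. At the far end, the 6 genes from Olfr1260 to Olfr1265 were M in primary B cells alone, and the 3 from Olfr140 to Olfr32 were M in primary B cells and in the map named for MEFs. The last 5, Olfr1270, Olfr1506, Olfr142, Olfr1271 and Olfr1272, were M in every map. Cluster 2 holds 4 protein-coding genes that are no receptors. Pramel7 and Pramel6, in its interior, were L in all maps, Gm4222 at the far end was M in all maps, and 4833423E24Rik near the first end was L in CH12 cells, M in primary B cells and L in the map named for MEFs.

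In cluster 3, the 24 genes from Olfr1275 to Olfr1303 were L in all 3 maps, including the first gene of the cluster. Olfr1305 and Olfr1306 were M in the map named for MEFs alone, the 7 genes from Olfr1307 to Olfr1313 were M in primary B cells and in that map, and the 4 from Olfr1314 to Olfr1318 were M in all maps. The first end of cluster 3 thus had no M gene in any of the 3 maps.

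The genes flanking the clusters were mostly earlier. Ptprj was E in all 3 maps, Ptgs1 was E in CH12 cells and in the map named for MEFs and M in primary B cells, and Pdcl was M in all maps. Lrrc55 was M in CH12 cells, E in primary B cells and M in the map named for MEFs. Lpcat4 was M in CH12 cells and E in the other maps, and 4930430A15Rik, which ends 1.22 kb before the first annotated base of cluster 3, was L in all. In CH12 cells, M members lay 92.3 to 303.2 kb from the nearest E domain, with a median of 185.5 kb, and L members lay 242.9 to 2672.1 kb from it, with a median of 1168.4 kb. In primary B cells the ranges were 63.9 to 405.1 kb for M and 306.9 to 2570.0 kb for L members. Distance to E and state are read from the same maps, so this is a description of layout and not a separate measurement.

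Few domains covered the members. In CH12 cells, 3 L and 4 M domains held all 286, and in both other maps 3 L and 5 M domains did. The L domain of cluster 2 ran for 4820 kb in CH12 cells at chr2:85160001-89980000, for 4440 kb in primary B cells at chr2:85360001-89800000, and for 4560 kb in the map named for MEFs at chr2:85320001-89880000. It held 216, 201 and 207 members respectively. Counting every protein-coding start, it held 219, 203 and 210, the most of any L domain in its map, of 750, 664 and 501 L domains. The next L domain held 97 starts in CH12 cells, 78 in primary B cells and 116 in the map named for MEFs. By length the L domain of cluster 2 ranked only 53, 44 and 32. Its density was 45.4 protein-coding starts per Mb in CH12 cells, where L domains as a whole had 3.76 per Mb and E domains 18.9 per Mb. A late domain was thus more gene-dense than the average early one, through receptor genes.

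The L domains with members took a small part of the late genome and a larger part of its genes. In CH12 cells they spanned 0.896% of the L length, and the members were 5.46% of all L gene starts. In primary B cells the values were 1.09% of length and 8.41% of starts, and in the map named for MEFs 0.721% and 9.34%. All olfactory receptor genes together were 16.1%, 19.96% and 26.6% of L gene starts in the 3 maps, so a count of late genes in these cells depends on whether the receptors are included.

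The late domain of cluster 3 differed most between maps. In both B cell maps it extended far beyond the receptors, over 6320 kb in CH12 cells with 33 members among 55 protein-coding starts, and over 6040 kb in primary B cells with 26 members among 48. Its far edge lay at 105.60 Mb in CH12 cells and 105.72 Mb in primary B cells, between the starts of Pax6, a homeodomain factor of eye development, and Elp4, a subunit of the Elongator complex. In the map named for MEFs the domain ran for 780 kb from 110.88 Mb, with 24 members among 27 starts. Ano3, Muc15 and Slc5a12, which lie before the cluster, were L in both B cell maps and M in the map named for MEFs. The 24 receptors from Olfr1275 to Olfr1303 were L in all 3 maps, inside domains of unlike length.

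The L domains of cluster 1 were the shortest of the 3 in each map, with 640 kb in CH12 cells, 500 kb in primary B cells and 480 kb in the map named for MEFs, and held 21, 16 and 17 members. These lengths lie below the median L domain of the same maps, which was 1100, 900 and 960 kb. They are longer than the 300 kb smoothing span applied before the states were called.

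Compared with CH12 cells, 27 members (9.44%) were earlier in primary B cells and 0 were later. Over all protein-coding gene starts, 18.8% were earlier and 2.75% later, but these shares depend on the state a gene starts from, since an L gene cannot become later and an E gene cannot become earlier. Of the members, 16 were M in CH12 cells and could have become later, and the 0 of 16 that did allow a share of up to 18.8%, beside 1.81% of the 6088 protein-coding genes that were M in CH12 cells. Of the same 16 members, 0 became E, which allows a share of up to 18.8%, beside 33.2% of those 6088 genes. The 16 lay in only 4 M domains, so both limits cover counting only and treat genes of the same domain as separate. Among genes L in CH12 cells, 27 of the 270 members were M in primary B cells, 1 in 10. The same share was 41.2% of 4950 over all protein-coding genes, 35.7% of the 529 olfactory receptor genes on other chromosomes and 40.8% of the 174 on chromosome 7. Of the 129 receptor genes on chromosome 9, 96.1% were L in CH12 cells and 81.4% in primary B cells. The members' L shares were 94.4% and 85.0%, so a small fall was not particular to chromosome 2. All 27 members lay in a run at a cluster end: 5 of the 21 L in CH12 cells in cluster 1, 15 of 216 in cluster 2 and 7 of 33 in cluster 3. The members' share thus rests mostly on cluster 2.

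The edges of the L domains show the same difference as a distance, except at the left of cluster 3, where no member changed state. That edge lay far outside the cluster in both B cell maps, at 105.60 Mb in CH12 cells and 105.72 Mb in primary B cells. All 6 edges lay further into the late domain in primary B cells than in CH12 cells. The shift was 20 kb at the left and 120 kb at the right edge of cluster 1, 200 and 180 kb at those of cluster 2, and 120 and 160 kb at those of cluster 3. Each shift was shorter than the 300 kb smoothing span. Over all edges where an L domain met an M domain in CH12 cells, the innermost L bin was earlier than L in primary B cells at 84.3% of 1499 edges, so 6 of 6 is near what the genome as a whole gave. The outer edges, where M met E, did not move in a common direction. In primary B cells the M/E edge lay 60 kb further out at the left of cluster 1 and 40 kb further in at its right. It lay 200 kb and 20 kb further in at the left and right of cluster 2. At cluster 3 it lay 20 kb further out at the left and 160 kb further in at the right.

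**Figure D3:**
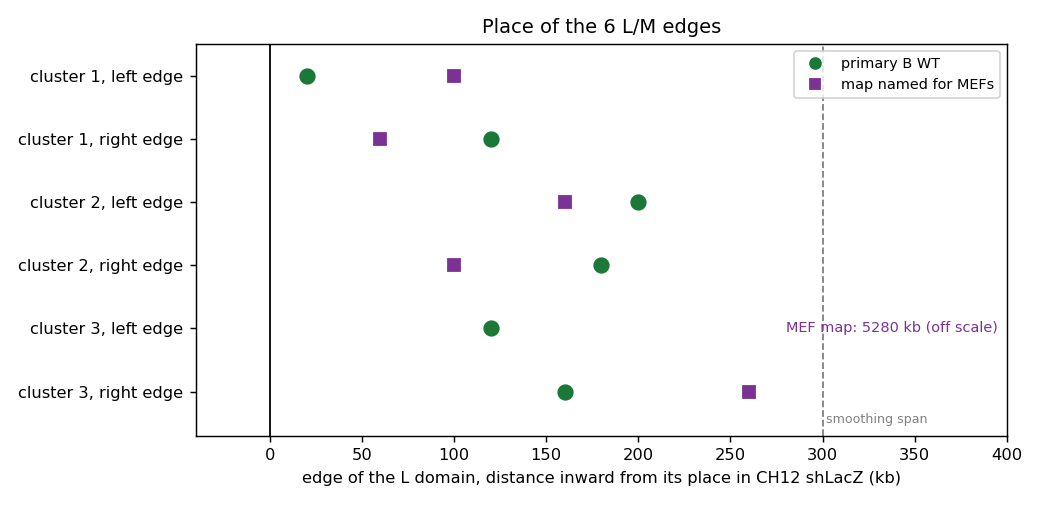
Place of the 6 edges where the L domains of the clusters met M, as the distance in kb inward from the same edge in CH12 cells, for primary B cells (circles) and the map named for MEFs (squares). All points lie to the right of 0, primary B cells between 20 and 200 kb, and the dashed line marks the 300 kb smoothing span.

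The map named for MEFs gave a like picture. Against CH12 cells, 22 members (7.69%) were earlier and 0 later, beside 23.1% earlier and 6.81% later of all protein-coding gene starts. Of the 270 members L in CH12 cells, 8.15% were M in this map, beside 44.3% M and 9.13% E of the 4950 protein-coding genes L in CH12 cells. The M share was 20.6% of the 529 olfactory receptor genes on other chromosomes that were L in CH12 cells, and 19.5% of the 174 on chromosome 7. Of the 16 members that were M in CH12 cells and could have become later, 0 did. By counting alone this allows a share of up to 18.8%, beside 5.54% of the 6088 protein-coding genes M in CH12 cells. Its 6 edges lay 60 to 5280 kb further in than in CH12 cells, the last value at the left of cluster 3. Over all CH12 edges the innermost L bin was earlier in that map at 79.7% of 1500. Against primary B cells, 3 members were earlier and 8 later in the map named for MEFs, beside 13.2% earlier and 11.8% later of all protein-coding gene starts. The comparisons with CH12 cells share that map, so they are not independent of each other.

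The boundaries between neighbouring members cut through families. A boundary fell between 13 pairs of neighbours in at least 1 map, 4 pairs in CH12 cells, 5 in primary B cells and 5 in the map named for MEFs, and the pair Olfr995 and Olfr996 was separated in 2 maps. In 10 of the 13 pairs both genes belonged to the same family by their RefSeq synonyms of the MOR series, a naming scheme that groups mouse receptors by protein sequence. Over the 270 neighbouring pairs with a MOR number for both genes, 58.2% shared a family. The most alike pair across a boundary was Olfr1306 and Olfr1307, whose sequences are printed above. Their starts lay 32.5 kb apart, and Olfr1306 was L and Olfr1307 M in primary B cells, while both were L in CH12 cells and M in the map named for MEFs. At the CH12 edge in the same cluster, Olfr1313 was L and Olfr1314 M, with starts 20.1 kb apart and 80.1% identity. At the CH12 edge of cluster 2, Olfr32 was L and Olfr1270 M, with starts 10.8 kb apart and 84.3% identity. These starts lie within 40 kb of each other and well within the smoothing span, so the pairs differ in the state called and the maps hold no finer RT value for them.

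Families were compared by place and state. A MOR number was given for 279 members in 55 families, of which 16 hold a single member. Of the 39 families with 2 or more members, 38 lay in a single cluster, and in 29 every member was L in all 3 maps. Neighbours share both family and domain, so these counts are not separate from position. Among the families of L genes were MOR233 with 18 genes, MOR174 with 14 and MOR231 with 14 in cluster 2, and MOR248 with 16 in cluster 3. In 7 of the 39 some members were L in all maps and others M in some map, and in 3 no member was L in all maps. MOR203, whose 6 members Olfr987 to Olfr995 open cluster 2, was L in CH12 cells and M in both other maps in every member. MOR245, with 22 members, was the single family found in 2 clusters. All but Olfr1036 of them lay in cluster 3, where they include its M end, and 11 of 22 were M in primary B cells against 4 in CH12 cells and 13 in the map named for MEFs. MOR248 shares cluster 3 with MOR245, and its 16 genes lay between Olfr1277 and Olfr1302, inside the part that was L in every map.

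Because repeated sequence yields no uniquely aligned reads, the share of 50-base windows found once in mm9 was computed. In the bins of the clusters 81.9% of windows were unique, against 90.7% elsewhere on chromosome 2. The median GC content of the cluster bins was 37.2% against 41.5% elsewhere on the chromosome. Cluster bins L in all 3 maps had 83.95% unique windows, those L in CH12 cells and M in primary B cells 83.8%, and those M in both B cell maps 63.3%. Outside the clusters on chromosome 2 the same classes had 88.5%, 91.5% and 83.2%. All these shares pool the windows of a class. By the median bin, the 3 classes had 87.5%, 88.75% and 71.5% in the clusters and 94.0%, 96.5% and 96.0% outside them. Outside the clusters the bins M in both B cell maps were thus lowest in the pooled share only. The cluster bins M in both B cell maps include 4 neighbouring bins at the right end of cluster 2, chr2:90000001-90080000. There 13.5% of windows were unique in the first bin and 0 to 0.5% in the others. These bins were M in all 3 maps. Where no sampled window is unique, the state may rest on values smoothed over neighbouring bins, whose part in the M call was not tested. The bin chr2:89060001-89080000, inside the L domain of cluster 2, also had 0% unique windows.

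The repeated bins hold 1 member start, that of Olfr1506, which had 0% unique windows over its annotated length. Its coding sequence of 930 bases occurred at exactly 2 places in the genome, at chr2:90061724-90062653 on the minus strand, which is the gene, and at chr2:90164354-90165283 on the plus strand, where the annotation has the pseudogene Gm13769. The timing of Olfr1506 itself was therefore not measured by reads of its own. Over all members the median share of unique windows was 94.4%, with 93 members at 100% and 10 below 50%. Members L in all 3 maps had a median of 96.6%, the 27 members that were M in primary B cells and L in CH12 cells 91.2%, and the 16 that were M in both 82.3%. Olfr1316 and Olfr1317 at the M end of cluster 3 had 20% and 47.3%. The members below 50% were 7 of the 240 that were L in all 3 maps and 3 of the 16 that were M in both B cell maps. Whether the smaller number of placeable reads has a part in the M calls was not tested.

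**Figure D4:**
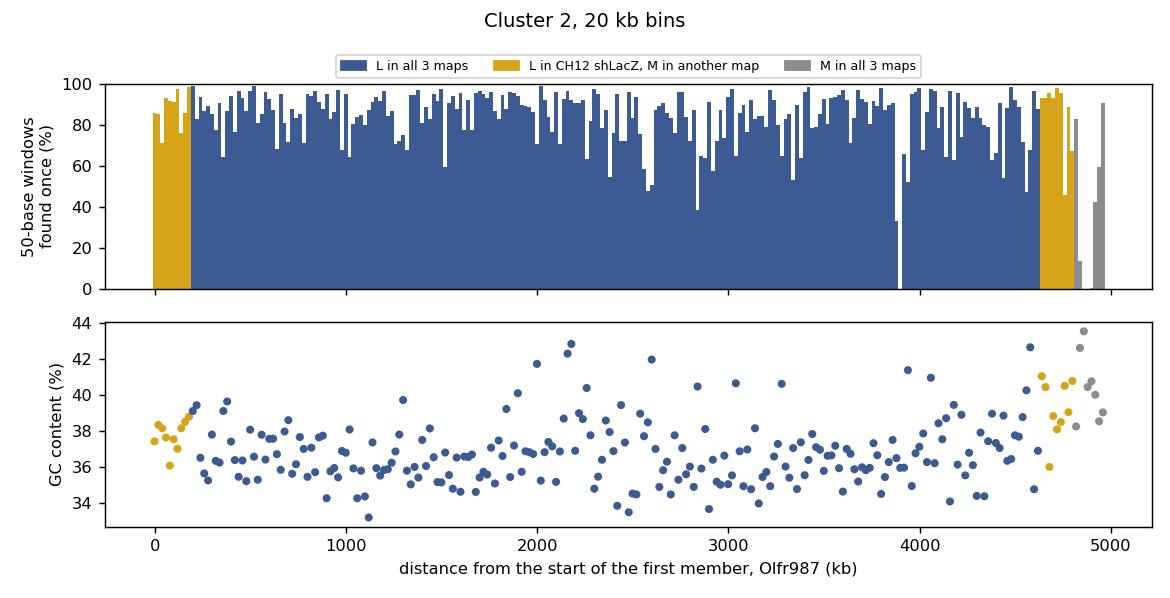
Cluster 2 in 20 kb bins by distance from the start of Olfr987 in kb, with the share of 50-base windows found once in the genome (top, percent) and the GC content (bottom, percent), coloured by the state in the 3 maps. The long L centre is unique for the most part, and the bins at the right end that are M in all maps include 4 with 13.5% or fewer unique windows.

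Olfactory receptor clusters on other chromosomes were timed in varied ways. Of 22 clusters with 10 or more genes, 9 had no gene that was L in all 3 maps, and 12 had a gene that was E in some map. None of the 3 on chromosome 2 was among either, and the same held for some clusters on chromosomes 7, 9, 11 and 17. The share L in all 3 maps was 91.0% in cluster 2, 64.9% in cluster 3 and 53.6% in cluster 1. The second largest cluster, with 129 genes on chromosome 7, had 32.6%, and the third largest, with 94 genes on chromosome 9, had 80.9%. The other cluster on chromosome 9, with 35 genes, had 82.9%. In 1 of the 22 clusters, with 15 genes on chromosome 7, every gene was L in all 3 maps. The 129 receptor genes of chromosome 9 had L shares of 96.1%, 81.4% and 86.8% in the 3 maps. The 240 on chromosome 7, which include the class I receptors, had 72.5%, 40.4% and 69.2%. With 1 map per condition no test of these differences was made.

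**Figure D5:**
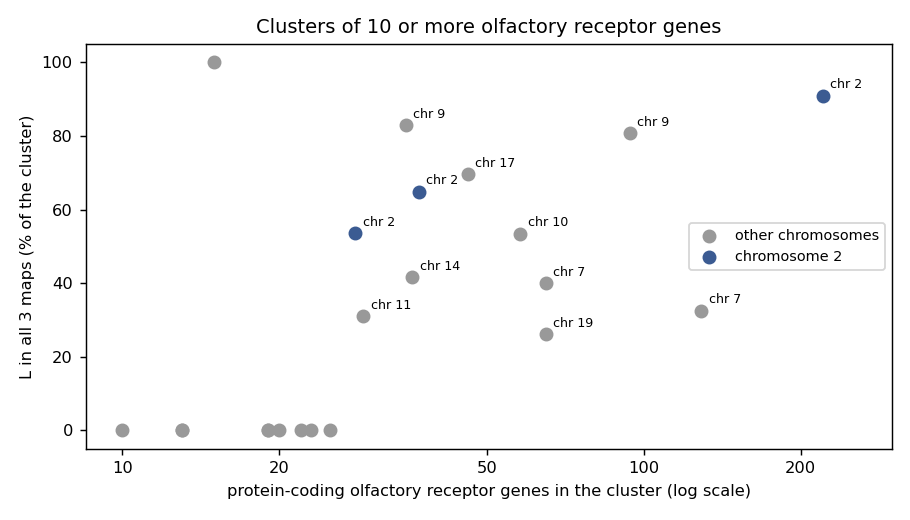
Clusters of 10 or more protein-coding olfactory receptor genes, with the number of genes on a log scale (x) and the share of them L in all 3 maps in percent (y), chromosome 2 in blue and other chromosomes in grey. Cluster 2, the largest with 221 genes, lies at 91.0%, and 9 clusters lie at 0.

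Genes that serve the same sense from other places in the genome were also read. Of 22 genes of the olfactory pathway, 12 were E, 5 M and 5 L in CH12 cells, 14 E, 7 M and 1 L in primary B cells, and 17 E, 4 M and 1 L in the map named for MEFs. Over all protein-coding gene starts the E share was 50.6%, 58.0% and 58.6% in the 3 maps and the L share as given above, so in CH12 cells the list lay near the background in both. Omp, the olfactory marker protein, and Adcy3, the adenylyl cyclase of odorant signalling, were E in all 3 maps. Cnga2 and Cnga4, subunits of the cyclic nucleotide-gated channel, were L in CH12 cells and M in primary B cells, while Cngb1, a further subunit, was E in all. Among factors known from receptor choice and its feedback, Lhx2, Ldb1, Kdm1a and Atf5 were E in all maps, and Emx2 was M in all. Ebf1 was M in CH12 cells and E in the other maps, Trim66 was M in both B cell maps and E in the map named for MEFs, and Nfib was L in both B cell maps and M in the map named for MEFs. Nfib was the only gene of the list that was L in primary B cells. Lhx2, on the same chromosome as the members, was E in each map.

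The state at marker genes was read as a check of the maps, since it is timing and not expression. The B cell markers were E in 6 of 7 in CH12 cells and 7 of 7 in primary B cells, and in 5 of 7 in the map named for MEFs. The fibroblast markers were E in 3 of 8 in each B cell map and in 7 of 8 in the map named for MEFs. Col3a1, a fibrillar collagen, was L in both B cell maps and E in the map named for MEFs, and Col1a2 was L in CH12 cells, M in primary B cells and E in the map named for MEFs. The T cell markers were E in 4 of 4 in both B cell maps and in 3 of 4 in the map named for MEFs. E at a marker thus does not set B cells apart from T cells. Over all protein-coding gene starts the E share was 50.6%, 58.0% and 58.6% in the 3 maps, so such short lists are a weak check.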

How the data were processed

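Domain maps of CH12 shLacZ and primary B WT cells and a map named for MEFs were used, and groups came from the sample titles. Per the methods, the authors trimmed reads of 50 bases with trim_galore 0.6.5, aligned them to mm9 with bwa mem 0.7.17, kept unique alignments with samtools 1.9, merged replicates and removed duplicates. They took log2 early over late reads in 20 kb windows with deepTools, smoothed them by loess over 300 kb, and called 3 states with a hidden Markov model. The deposited files hold domain limits and state numbers, with no RT value or read count. Smoothing blurs edges over its span, and the RT values that separate the states can differ between maps.

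State numbers were read as E, M and L in the way the rule for the members gives. In each map, gene density fell from E over M to L, and E touched L in 0 places. Genes were placed by start, and neighbouring members up to 1000 kb apart formed a cluster. Windows of 50 bases were taken every 100 bases of the chromosome and every 10 bases of each member, and counted on both strands of mm9. Coding identity is 100% minus the edit distance over the longer sequence (edlib 1.3.9.post1). All 286 members matched RefSeq symbols of the GRCm38.p6 table, and RefSeq calls 4 of them pseudogenes. Zero counts carry the limit that 3 counts give. The placing, joining and window steps were tested on simulated data. The members, gene lists and alternatives were chosen with earlier results of these data known. Genes named are those at cluster ends, at boundaries between neighbouring members, and next to the clusters, and other genes named were chosen after their values were seen. Scripts ran on Python 3.11.15 with scipy 1.17.1, pandas 2.3.3 and numpy 2.4.6.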

Additional observations from a re-analysis of the deposited data

How the results depend on the processing

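Of 50 values under alternatives of 14 results, 35 stayed within the interval of the value reported, or within 1.5 times of it for a count of domains, and 15 moved. Placing genes by midpoint, counting the 349 Olfr genes of all types, joining short domains and another cluster gap moved none of the values they were run for. Leaving out members within 100 kb of a boundary raised the L share to 98.1% in CH12 cells, 92.03% in primary B cells and 92.8% in the map named for MEFs, and the share L in all 3 maps to 98.3%. Leaving out those within 300 kb gave an L share of 100.0% in each map, a value fixed in advance. The M domains with members were 240 to 520 kb long, so all M members lay within 300 kb of a boundary and were left out. Under both exclusions, 0.0% of members were earlier in primary B cells, of 235 and 195 members, as follows from edge shifts of at most 200 kb. Bins that hold a member start gave 85.5% L territory in the map named for MEFs. On chromosome 2 alone, the L share of all protein-coding starts, members included, was 25.8%, 18.7% and 19.02% in the 3 maps, and on autosomes 21.3% in CH12 cells and 11.0% in the map named for MEFs.

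No paired analysis was possible because each map pools its replicates. The maps limit what can be said of a gene: an edge is known to a bin at best and was smoothed over 300 kb, replicate spread and depth are unknown, and 10 members have under 50% unique windows, whose part in their states was not tested.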
